A study of Mus musculus with 2031 samples.

Results

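Glucocorticoid activation and response were followed through 8 genes of the count data: Hsd11b1, Nr3c1, Nr3c2, Fkbp5, Sgk1, Tsc22d3, Per1 and Fam107a. They were chosen by name from the 49671 genes counted, with earlier results of the same cells known, so their levels across cell types are given as a description and without a test. All 8 were found. The cells were isolated from the brains of untreated C57BL/6J mice at postnatal day 56 by sorting for the astrocyte surface antigen ACSA-2 and against the oligodendrocyte antigen O1 and dead cells. Each cell was sequenced separately with Smart-seq2, a full-length method without molecular identifiers. The 2 groups were cortex and hippocampus, and neither carried a transgene or a treatment. Each group held 2 cell suspensions: the cortical suspensions 1C and 2C each came from 1 animal, both of 1 litter, and the hippocampal suspensions 1H and 2H were each pooled from several littermates of other litters, so litter and region cannot be told apart.

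Corticosterone, the main glucocorticoid of mice, reaches the brain from the blood. Inside cells 11β-hydroxysteroid dehydrogenase type 1, the product of Hsd11b1, regenerates it from its inert 11-keto form with NADPH that hexose-6-phosphate dehydrogenase (H6pd) supplies in the endoplasmic reticulum, whereas the type 2 enzyme (Hsd11b2) inactivates it. The hormone binds the glucocorticoid receptor (Nr3c1) and, with higher affinity, the mineralocorticoid receptor (Nr3c2), which are held by Hsp90 and its co-chaperones until they bind DNA. Fkbp5, Sgk1, Tsc22d3 (also called Gilz), Per1 and Fam107a are well-known genes that the receptor induces, with Fkbp5 acting back on the receptor as an inhibitory co-chaperone.

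Of 2031 cells 2030 were used, with 600758 to 3238215 gene counts each (median 1458411). The study's cell types and its 5 astrocyte subtypes, AST1 to AST5, were taken as given, and 1982 cells carried one: 657 were AST1, 555 AST2, 452 AST3, 91 AST4 and 26 AST5, and the others were mural cells, 30 endothelial, 17 neuronal, 11 microglial and 9 oligodendrocytic cells. AST1 was mostly hippocampal, with only 57 and 55 cells in 1C and 2C, and AST2 mostly cortical, with only 10 and 22 cells in 1H and 2H, while AST3 was more even, with 65 and 82 hippocampal cells. All 8 of 8 astrocyte markers had a count in most AST1, AST2, AST3 and AST5 cells and 5 of 8 in most AST4 cells. These types were made from the same counts, and Hsd11b1 (AST1), Tsc22d3 (AST2) and Fam107a (AST2 and AST5) are among the subtype markers that the study chose on these cells. A level is given in CPM, a gene's reads per 1000000 reads of all genes in the summed cells of 1 type and 1 suspension. Sums of under 5 cells are left out of ranges and means unless named.

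Promoter windows show what lies at the starts of the response genes (RefSeq, GRCm38.p6, 250 bases before to 50 after each start). The windows searched for the members were 17, of 7 of the 8 genes, and none was of Nr3c1. The glucocorticoid receptor binds as a dimer to an inverted repeat, whose core was searched on both strands as ACANNNTGT. The full palindrome, AGAACA and its inverted copy TGTTCT with 3 bases between them, contains the core. The core was in 4 of the 17 windows (Sgk1 windows 2 and 5, and the overlapping Fam107a windows 1 and 2) and in 6.85% of all 32851 windows. The full palindrome was in 3 of all 32851 windows (0.00913%), 1 of them Sgk1 window 5. The E-box CACGTG, the element of the clock factors CLOCK and BMAL1, was in 3 of the 17 (1 each of Fkbp5, Sgk1 and Per1) and in 7.15% of all, and the cAMP element TGACGTCA was in 0 of the 17 and in 1.79% of all. A match is a description and not a binding site. The windows that hold these matches in Sgk1 (chr10:21993640-21993939, + strand), Fam107a (chr14:8309728-8310027, − strand) and Per1 (chr11:69098699-69098998, + strand) are shown 5′ to 3′ with the matched letters in capitals, the first for the palindrome and an E-box, the second for the core and the third for an E-box.
Sgk1 window 5: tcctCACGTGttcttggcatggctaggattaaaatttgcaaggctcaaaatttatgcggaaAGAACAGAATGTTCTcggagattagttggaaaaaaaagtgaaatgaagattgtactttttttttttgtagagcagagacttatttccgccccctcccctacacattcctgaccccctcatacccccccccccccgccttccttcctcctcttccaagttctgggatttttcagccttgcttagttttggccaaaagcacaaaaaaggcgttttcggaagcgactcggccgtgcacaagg
Fam107a window 1: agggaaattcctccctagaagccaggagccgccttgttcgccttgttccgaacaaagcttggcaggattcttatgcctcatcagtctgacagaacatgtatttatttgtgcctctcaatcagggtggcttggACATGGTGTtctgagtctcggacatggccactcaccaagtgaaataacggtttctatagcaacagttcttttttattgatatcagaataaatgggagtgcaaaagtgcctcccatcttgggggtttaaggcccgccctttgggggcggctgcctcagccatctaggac
Per1 window 1: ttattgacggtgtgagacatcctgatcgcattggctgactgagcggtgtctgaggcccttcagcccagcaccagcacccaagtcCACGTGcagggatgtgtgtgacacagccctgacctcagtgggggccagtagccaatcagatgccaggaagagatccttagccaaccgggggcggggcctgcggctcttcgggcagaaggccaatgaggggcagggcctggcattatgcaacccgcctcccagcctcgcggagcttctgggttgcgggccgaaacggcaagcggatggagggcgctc

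Among these sorted cells Hsd11b1, the gene of the activating enzyme, was found mainly in astrocytes, with its highest level in AST1. Counts were found in 1220 of 1781 astrocytes (68.5%, 95% Wilson interval 66.3 to 70.6) against 10 of the other typed cells (4.98%), of which 3 had 10 counts or more, at median depths of 1469310 and 1284430 counts. In AST1 the CPM was 934, 723, 1534 and 1787 in 1C, 2C, 1H and 2H, so both hippocampal suspensions were above both cortical ones. In AST2 it was 572, 552, 783 and 1019 and in AST3 443, 337.5, 653 and 648, with the same separation of the regions. In AST4 the hippocampal sums were at 210.5 and 202.8 CPM, the lowest of the astrocytes there. The 3 larger AST5 sums spread from 47.6 to 569 CPM. Within each region the ranges of AST1, AST2 and AST3 stood apart in that order, and that of AST4 lay below them in hippocampus, whereas AST3 and AST5 overlapped in cortex.

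The gene (chr1:193221634-193264075, − strand, GRCm38) had a count in 557 of 657 AST1 cells (84.8%), 62.5% of AST2 cells, 280 of 452 AST3 cells (61.9%), 25 of 91 AST4 cells (27.5%) and 11 of 26 AST5 cells (42.3%). These shares pool regions that the subtypes hold unequally. In cortex they were 61.8 and 73.7% in AST1, 61.1 and 63.3% in AST2 and 59.6 and 63.6% in AST3, which overlap. In hippocampus AST1 was at 85.6 and 90.9% and AST3 at 60 and 64.6%, while AST2, of few cells, was at 63.6 and 80%. Counts in AST1 cells reached 19509. Thinning each cell to 500000 counts left these shares at 84.3%, 61.1%, 60.6%, 26.4% and 40.1%, so that differences in depth moved none by more than a few points. Mural sums were at or below 9.06 CPM, endothelial sums at or below 20.4 CPM, and 0 of 11 microglial cells had a count, which allows a share of up to 27.3%. These intervals and limits cover counting error only.

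Of the other genes that set the supply of hormone, none was abundant in astrocytes. H6pd, the source of NADPH for the enzyme, was at 0 to 14.6 CPM in the sums of AST1, AST2 and AST3 and at 95.95 to 197.1 CPM in mural cells, with a count in 63 of 2030 cells (3.10%). Among the 1220 astrocytes with Hsd11b1 counts 18 (1.48%) also had H6pd counts, and among the 561 without 15 (2.67%) had them. Hsd11b2 had a count in 0 of 2030 cells, which allows a share of up to 0.148% of cells. Abcb1a, an efflux pump of the blood-brain barrier that exports glucocorticoids, was at 423 to 914 CPM in endothelial sums (25 of 30 cells) and at or below 0.326 CPM in AST1, AST2 and AST3. Srd5a1, a steroid 5α-reductase, was at or below 28.5 CPM in those subtypes.

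**Figure D1:**
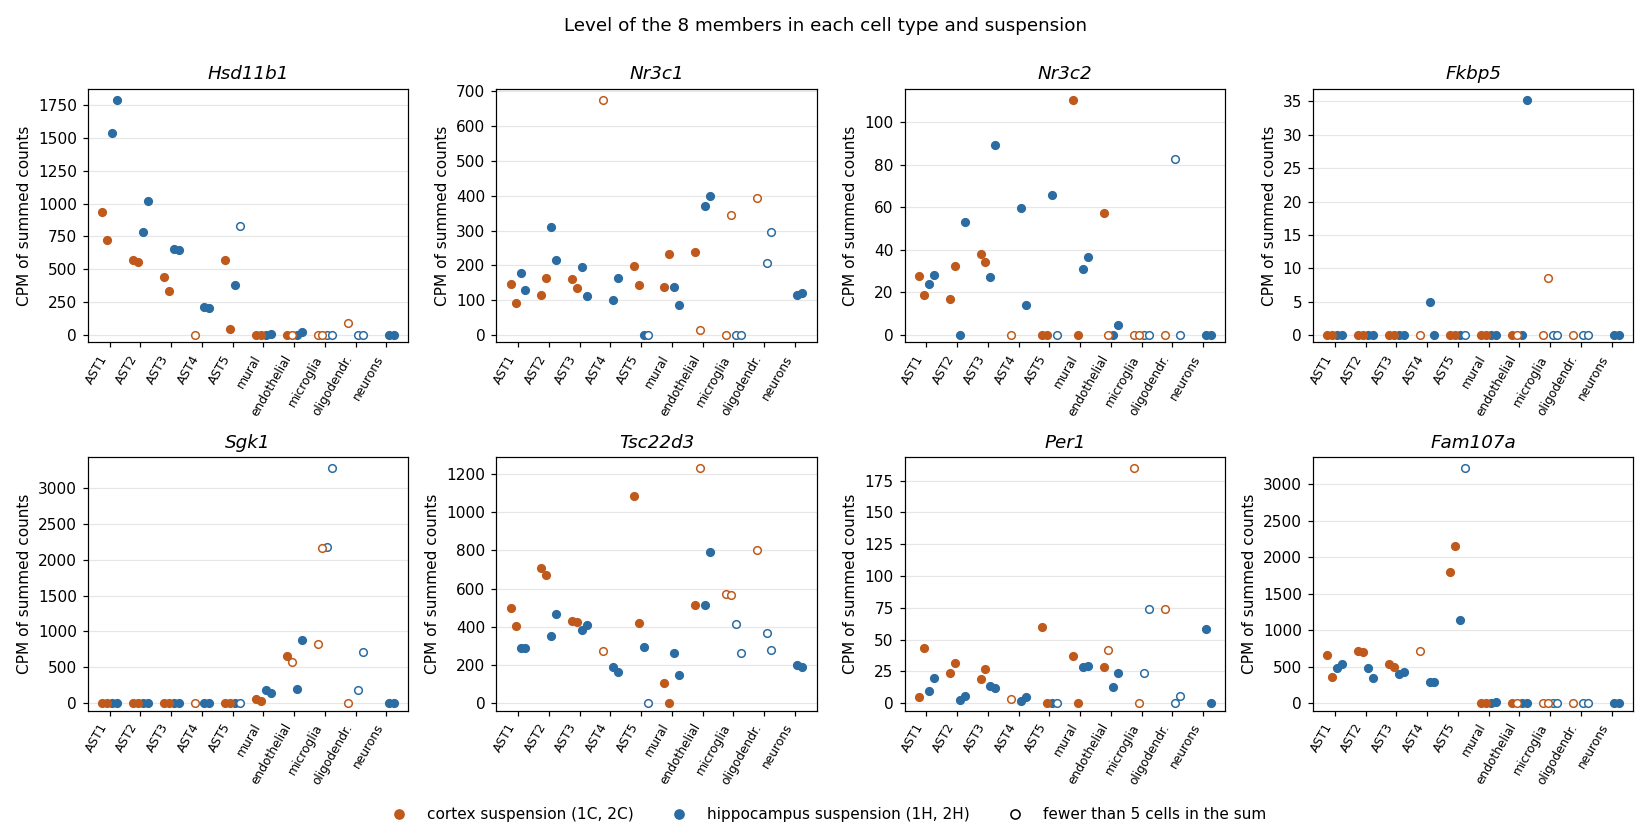
Level of each of the 8 genes (vertical axis, CPM of summed counts, a separate linear scale for each gene) by cell type (horizontal axis). Each point is 1 suspension, orange for cortex and blue for hippocampus, and open points are sums of fewer than 5 cells. Hsd11b1 runs from 723 to 1787 CPM in AST1 and is at or below 20.4 CPM in mural and endothelial cells, whereas Sgk1 is highest in microglia and endothelial cells.

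The glucocorticoid receptor gene Nr3c1 was present in every major type. Its CPM in 1C, 2C, 1H and 2H was 146.2, 90.95, 178.3 and 130.3 in AST1, then 114.4, 164.7, 309.3 and 216.6 in AST2, and 159.7, 135.8, 194.6 and 111.98 in AST3. In cortex the ranges of all 3 overlapped. In hippocampus AST2 (mean 262.9 ± 65.5 CPM, SD, n = 2 suspensions) stood above AST1 (154.3 ± 33.95) and AST3 (153.3 ± 58.4), whose ranges overlapped. The AST5 sum of 1H, of 6 cells, was at 0 counts, against 198.5 and 143.9 CPM in 1C and 2C. Mural sums (136.7, 233.3, 138 and 86.7 CPM) overlapped those of AST1 and AST3. Endothelial sums of at least 5 cells were at 239.3, 370.9 and 401 CPM. Of the astrocytes 683 of 1781 (38.3%) had a count, as did 60 of the other typed cells (29.9%), among them 8 of 9 oligodendrocytic cells. Nr3c1 is on chromosome 18 (− strand).

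The mineralocorticoid receptor gene Nr3c2 (chr8:76899442-77245012, + strand) was scarcer. Its CPM was 27.5, 18.7, 24.1 and 28.1 in AST1, 16.7, 32.2, 0 and 53.02 in AST2, and 37.9, 34.2, 27.2 and 89.04 in AST3, where the value of 0 is a sum of 10 cells. Of the astrocytes 11.6% had a count, and of the neurons 0 of 17, which allows up to 17.6% of such cells. Of its exonic bases 3.82% are shared with a long noncoding RNA on the other strand, Gm10649, and the libraries did not mark strand, so reads there cannot be assigned to either. Per kilobase of exons the mean level of Nr3c1 in AST1 was 17.8 ± 4.72 CPM per kb (SD, n = 4 suspensions) and that of Nr3c2 was 3.80 ± 0.663 CPM per kb. On the same per-kilobase scale Hsd11b1 was at 292.8 ± 117.3 CPM per kb in AST1, the highest of the 8 genes there.

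The receptor's partners, given here for the most abundant of each list, differed in level between types. Of the chaperones, the most abundant were Hspa8 (814 to 1421 CPM over AST1, AST2 and AST3), Hsp90ab1 (166.8 to 537 CPM there) and Hsp90aa1 (77.2 to 214.4 CPM there), which hold the receptor ready for hormone. The mural sums of all 3 lay above those of AST1, AST2 and AST3, with Hsp90ab1 at 1326 to 1742 CPM and Hsp90aa1 at 263.3 to 414 CPM. AST4 differed from the other subtypes, with Hsp90ab1 at 1242 to 1426 CPM, which overlapped mural cells, and Hsp90aa1 at 428.6 to 609 CPM, above them. Of the coregulators, Crebbp (67.8 to 103.1 CPM in AST1), a histone acetyltransferase, Ncoa1 (75.8 to 143.5 CPM) and the Mediator subunit Med1 (46.1 to 63.9 CPM) led. Ncoa1 had a count in 28.8% of AST1 cells and 6.72% of mural cells.

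**Figure D2:**
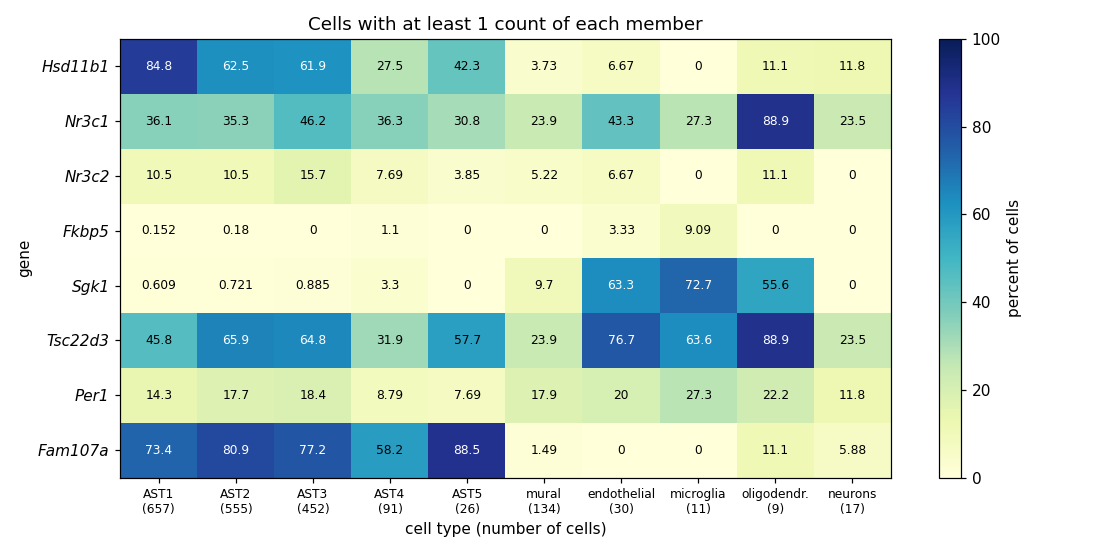
Percent of cells with at least 1 count of each gene (rows) in each cell type (columns, number of cells in parentheses). The color scale runs from 0 to 100 percent. Hsd11b1 and Fam107a are seen in 84.8% and 73.4% of AST1 cells, Fkbp5 in 0.152%, and Sgk1 in 72.7% of the 11 microglial cells.

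The target genes divided into those that astrocytes expressed and those that they scarcely did. Fkbp5 and Sgk1 belong to the second kind. Fkbp5 (chr17:28399094-28517527, − strand) had a count in 5 of 2030 cells (0.246%): 1 each of AST1, AST2, AST4, endothelial and microglial cells. Their levels were 4.65, 1.38, 143.1, 457 and 25.8 CPM of the cell, from 2 to 550 counts. In AST3 0 of 452 cells had a count, which allows a share of up to 0.664%.

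Sgk1 (chr10:21882184-21999903, + strand), a kinase that regulates ion channels and transporters, was outside the astrocytes. It had a count in 61 of 2030 cells (3.00%), of which 15 were among 1781 astrocytes (0.842%). The microglial sums, of 2 or 3 cells each, were at 822, 2161, 2174 and 3271 CPM, and 8 of 11 cells had a count. The endothelial sums were at 654, 569, 202.7 and 877 CPM (19 of 30 cells, with only 3 cells in 2C), and 5 of 9 oligodendrocytic cells had a count. Mural cells were lower at 59.6, 30.1, 182.96 and 135.01 CPM (9.70% of cells), while 0 of 17 neurons had a count. The astrocyte sums of at least 5 cells were at or below 6.73 CPM.

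Tsc22d3 (chrX:140539528-140600659, − strand), which encodes the leucine zipper protein Gilz that mediates anti-inflammatory actions of the hormone, was widely expressed. Its CPM in 1C, 2C, 1H and 2H was 500.3, 407, 291.3 and 289.4 in AST1, 707, 671, 351.1 and 465 in AST2, and 429, 423, 385 and 411 in AST3. The cortical suspensions were above the hippocampal ones in all 3, narrowly so in AST3. AST4 was lower, at 188 and 161.6 CPM, and AST5 spread from 293.7 to 1086 CPM. Endothelial sums of at least 5 cells reached 517, 514 and 792 CPM, and mural sums 108.05, 0, 264.7 and 147.2 CPM. The share of cells with a count was 56.4% of astrocytes and 36.8% of other typed cells, with AST1 at 45.8%, AST2 at 65.9% and AST3 at 64.8% in cells pooled over regions. In cortex AST1 was at 52.7 and 57.9% and AST3 at 66.9 and 71.5%, while in hippocampus AST1 (40.2 and 47.4%) and AST3 (46.2 and 63.4%) overlapped.

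Per1 (chr11:69095217-69109960, + strand), a repressor of the circadian clock that the hormone also induces, was low throughout. Its CPM was 4.53, 43.6, 9.64 and 20.1 in AST1, 24.01, 31.3, 2.50 and 5.55 in AST2, and 19.2, 27.2, 13.2 and 11.6 in AST3. Among these 3 subtypes AST1 had the widest spread between suspensions of 1 region. AST4 was at 1.51 and 5.19 CPM, and 14.4 to 17.8% of astrocytes (95% Wilson interval) had a count.

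Fam107a (chr14:8296274-8318023, − strand), an actin-binding protein gene induced by stress and glucocorticoids, was counted in 1356 of 1781 astrocytes (76.1%) but in only 4 other typed cells (1.99%). Its CPM was 661, 361.4, 485 and 530.2 in AST1, 713, 700, 478 and 344.2 in AST2, and 541, 498, 405 and 431 in AST3. In cortex AST2 lay above AST1 and AST3, whose ranges overlapped, and in hippocampus AST1 lay above AST2 and AST3, whose ranges overlapped. AST5 stood above them at 1796, 2158 and 1137 CPM in 1C, 2C and 1H, and AST4 was lowest at 293.8 and 287.9 CPM. In 2H AST5 had 2 cells, at 3215 CPM. Fam107a had a count in 23 of 26 AST5 cells (88.5%) and in 0 of 30 endothelial and 0 of 11 microglial cells. AST5 cells also differed in read makeup: a median of 1.59% of their reads lay outside exons, against 12.8% in AST1, 13.96% in AST2 and 10.7% in AST3, and the part of this in the level of Fam107a was not tested.

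Few cells held many of the genes at once. The median astrocyte had a count for 3 of the 8 genes. Of 1781 astrocytes 54 had none, 230 had 1, 473 had 2 and 57.5% had 3 or more, but only 89 had 5 and 8 had 6. None had 7 or 8, which would have needed Fkbp5 or Sgk1, with a count in only 3 and 15 astrocytes. Whether these numbers differ from what the separate shares of the genes give was not tested. Over the cells of 1 subtype in 1 suspension the Spearman correlation of Hsd11b1 and Tsc22d3 had a median of 0.09 over 12 such sets of cells and ranged from −0.19 to 0.37, which in sparse counts is no finding.

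Other known glucocorticoid targets did not share 1 pattern. Dusp1, a phosphatase of MAP kinases, was at 51.8 to 141.7 CPM in AST1, 258.99 to 537 CPM in AST3, 1296 to 3056 CPM in mural and 2643 to 6539 CPM in endothelial sums. Glul, glutamine synthetase and an astrocyte enzyme, was at 647 to 1437 CPM over AST1, AST2 and AST3 and at or below 57.1 CPM in mural sums. Nfkbia, an inhibitor of NF-κB, was at 86.9 to 208.6 CPM in AST1 and reached 1145 to 1731 CPM in endothelial sums. Immediate early genes are known to be induced by dissociation of tissue. Of these, Fos was at 28.8 to 77.6 CPM in AST1, 442 to 694 in AST3, 2266 to 7776 in mural and 1355 to 3851 in endothelial sums. Junb was at 0 to 27.7 CPM in AST1 and 635 to 3146 in mural sums. The part of such induction in the levels of Dusp1, Sgk1 and Per1 was not tested. Of the clock genes, Bhlhe41, Per3 and Nr1d1 were at 243.03 to 345.8, 315.1 to 443 and 174.3 to 296.9 CPM in AST1, all above Per1 in that subtype.

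The genes most like each member were found over the 26 sums of at least 5 cells, among 7775 genes, by the Pearson correlation of log2(CPM + 1), as a description over sums that share suspensions. In the mural, endothelial and neuronal sums among them Hsd11b1 was at or below 20.4 CPM and Fam107a at or below 13.1 CPM. So a high value can reflect the difference between astrocytes and other cells alone. For Hsd11b1 they were Scrg1 (0.96), Cadm2 (0.96) and Lcat (0.96). For Fam107a they were Adhfe1 (0.99), Plekhb1 (0.99) and Acot11 (0.98), and for Sgk1 BC028528 (0.96), F11r (0.96) and Pcp4l1 (0.96). The values were lower for Nr3c1 (Hnrnpa2b1, 0.91), Nr3c2 (Cxxc1, 0.91) and Tsc22d3 (Cs, 0.90).

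Hippocampus and cortex were then compared within AST1, AST2, AST3, mural cells and all astrocytes, on counts summed per suspension, to ask whether the members differ by region among cells of 1 named type. Subtype markers also moved with region within these types. The AST1 markers Gfap and Agt (2 genes) summed to 709.8 and 847 CPM in cortex and 1982 to 2086 CPM in hippocampus in AST1, to 203.6 to 281.3 and 742 to 928 CPM in AST2, and to 520.2 to 528 and 1467 to 1820 CPM in AST3. The AST2 marker Unc13c was at 10.06 to 67.9 CPM in cortex and 5.12 to 8.03 CPM in hippocampus in AST1, at 57.01 to 94.7 and 0 CPM in AST2, and at 12.7 to 16.5 and 2.16 to 3.35 CPM in AST3. So a named type is not shown to hold the same cells in both regions, and the part of subtype makeup in the differences of the members was not tested. Cell quality moved as well: the median share of reads outside exons was 10.6 to 10.99% in cortex and 12.95 to 13.2% in hippocampus in AST1, and 9.55 to 10.7% and 11.9 to 12.1% in AST3, where the median number of genes per cell was 2584 to 2628 in cortex and 2051 to 2112 in hippocampus. In AST2 that number was 2072 to 2155 in cortex and 1818 to 1893.5 in hippocampus, while the share outside exons overlapped. In mural cells the share outside exons was 8.76 to 10.5% in cortex and 11.8 to 12.6% in hippocampus. Its part was not tested either. In the edgeR quasi-likelihood test with Benjamini-Hochberg adjustment 0% of genes passed an adjusted p under 0.05 in each of these comparisons, with 2 suspensions against 2, so no member was called. The genes tested numbered 15521, 14847, 14960, 10614 and 19160, and 2023, 3459, 1547, 961 and 2609 of them had an unadjusted p under 0.05. With DESeq2 17.5% of genes were called in AST1, 29.2% in AST2, 13.8% in AST3, 12.9% in mural cells and 9.70% in all astrocytes. limma on mean log values of cells called 0, 0, 1, 0 and 506 genes. In AST2, where 1H and 2H held few cells, edgeR called 13% of genes without 1H and 34.4% without 2H, among them Fam107a in both, Hsd11b1 without 1H, and Tsc22d3 and Per1 without 2H. The smallest exact two-sided permutation p for 2 values against 2 is 0.333. As nothing from the labels shows that the suspensions are independent beyond their animals, p-values measure the spread between these suspensions only.

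Hsd11b1 was the member with the most even region difference. In AST1 its mean was 829 CPM in cortex and 1661 CPM in hippocampus, 2.00 times as high, with a fitted log2 fold change of 1.04 ± 0.16 (SE; edgeR adjusted p = 0.257; DESeq2 adjusted p = 5.45e-08). In AST2 the ratio of means was 1.60 and the fitted log2 fold change 0.58 ± 0.25 (edgeR adjusted p = 0.312; DESeq2 adjusted p = 0.0067). In AST3 it was 1.67 and 0.79 ± 0.16 (edgeR adjusted p = 0.380; DESeq2 adjusted p = 5.24e-06). Over all astrocytes the ratio was 2.42 and the log2 fold change 1.30 ± 0.10 (edgeR adjusted p = 0.135; limma adjusted p = 0.0116), but this sum also holds more AST1 cells in hippocampus. By limma Hsd11b1 was not called in AST1, AST2 or AST3, where 0, 0 and 1 genes were called, the last lower in hippocampus. Hsd11b1 is itself among the study's AST1 markers, and the AST1 markers Gfap and Agt had larger log2 fold changes than it in AST2 (1.98 and 1.43), AST3 (1.49 and 1.81) and all astrocytes (2.78 and 1.86), and in AST1 Gfap was larger (1.82) and Agt equal to 2 decimals (1.04). The mean of the AST1, AST2 and AST3 differences, which gives each subtype the same weight, was 0.81 on the log2 scale, beside a median of −0.25 over all genes. That fit counts the 3 sums of 1 suspension as separate samples although they share animals, so its p-values are too small and none is given. The median log2 fold change of all genes was 0.10 in AST1, −0.62 in AST2, −0.04 in AST3 and 0.01 in all astrocytes. The AST2 median moved with the scaling, to −0.46 with DESeq2's size factors and −0.06 with limma, and that of the 8 astrocyte markers in AST2 was −0.11 with edgeR. All alternatives run kept the direction of Hsd11b1 in these 4 comparisons.

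Tsc22d3 had a lower mean in hippocampus in AST1 and AST2, while in AST3 and mural cells the fitted difference was smaller than its standard error. Astrocytes and mural cells were not tested against each other. It is among the study's AST2 markers, and Unc13c of that subtype was lower in hippocampus in AST1, AST2 and AST3 as well, as given above. In AST1 its mean was 453 CPM in cortex and 290.3 CPM in hippocampus, and the fitted log2 fold change was −0.61 ± 0.15 (edgeR adjusted p = 0.257; DESeq2 adjusted p = 1.73e-05). In AST2 the log2 fold change was −0.86 ± 0.26 (edgeR adjusted p = 0.179; DESeq2 adjusted p = 0.021), with 10 and 22 hippocampal cells behind it. In AST3 it was −0.05 ± 0.11 (edgeR adjusted p = 1.00), a difference smaller than the spread of the fit. Over all astrocytes it was −0.89 ± 0.06 (edgeR adjusted p = 0.135; limma adjusted p = 0.0148). This sum also holds fewer AST2 cells and more AST4 cells in hippocampus. In cortex the mean level of Tsc22d3 was 689 CPM in AST2, 453 in AST1 and 426 in AST3. In hippocampus AST2 and AST3 overlapped, and AST4, with a mean of 174.8 CPM, lay below AST1. The part of subtype makeup in the value of Tsc22d3 over all astrocytes was not tested. In mural cells its mean was 54.03 CPM in cortex, where 2C was at 0, and 205.97 CPM in hippocampus, 3.81 times as high, with a log2 fold change of 2.00 ± 2.83 (edgeR adjusted p = 1.00; DESeq2 adjusted p = 1.00).

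Whether the region differences of AST1 and AST3 themselves differed was tested by an interaction. For Tsc22d3 the log2 difference of differences, AST1 minus AST3, was −0.55 ± 0.18 (edgeR adjusted p = 0.777; DESeq2 adjusted p = 0.00195), where edgeR called 0% and DESeq2 10.9% of 17213 genes. In the limma fit on log values it was 0.04. For Hsd11b1 it was 0.25 ± 0.13 (edgeR adjusted p = 0.807; DESeq2 adjusted p = 0.636). The median of all genes in this fit was 0.72 with edgeR and 0.06 with limma. With edgeR the median was 0.01 for the 8 astrocyte markers, −0.08 for the 9 coregulators, 0.25 for the 8 chaperones and 0.34 for the 19 other targets. So the median of all genes is no baseline for abundant genes such as Hsd11b1, and these lists do not share a baseline either. The edgeR test gave 646 genes an unadjusted p under 0.05 there.

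Fam107a and the receptors had smaller or less even differences. Fam107a was at 0.03 ± 0.31 in AST1, −0.91 ± 0.18 in AST2 (edgeR adjusted p = 0.139; DESeq2 adjusted p = 0.000205) and −0.26 ± 0.11 in AST3 on the log2 scale. In AST2, with 10 and 22 hippocampal cells, 44.7% of genes tested had a lower log2 fold change than Fam107a. The median of all genes there was −0.62, which moved with the scaling, and DESeq2 called 29.2% of genes. Nr3c1 was at 0.42 ± 0.32 in AST1, 0.78 ± 0.34 in AST2, 0.10 ± 0.32 in AST3 and −0.57 ± 0.53 in mural cells, and Nr3c2 at 0.21 ± 0.47 in AST1, 0.09 ± 3.14 in AST2, 0.75 ± 0.66 in AST3 and −0.63 ± 3.17 in mural cells. Per1 had its largest difference in AST2, where its mean was 27.7 CPM in cortex and 4.03 CPM in hippocampus and the log2 fold change −2.86 ± 1.52 (edgeR adjusted p = 0.439; DESeq2 adjusted p = 0.00793). It was at −0.68 ± 1.26 in AST1, −0.85 ± 0.50 in AST3, 0.70 ± 2.90 in mural cells and −1.003 ± 0.41 over all astrocytes (edgeR adjusted p = 0.432). In mural cells Sgk1 was 3.54 times as high in hippocampus by mean CPM, with a log2 fold change of 1.94 ± 0.71 (edgeR adjusted p = 0.554, DESeq2 adjusted p = 0.0182). Mural cells with a count were 1 of 27 in 1C, 1 of 12 in 2C, 6 of 48 in 1H and 5 of 47 in 2H. Mural sums of the endothelial marker list (6 genes, in 1C, 2C, 1H and 2H) were at 265.8, 376.7, 499.5 and 554 CPM, with 2, 2, 1 and 0 of its genes at 0, and the fibroblast list (4 genes) at 281.8, 234.5, 581 and 575 CPM, with 2, 2, 0 and 0 at 0. The 12 immediate early genes all had positive log2 fold changes in mural cells too (median 1.33, against 0.24 for all genes). The part of these in the mural differences of Sgk1 and Tsc22d3 was not tested. The microglial marker list (5 genes) summed to at most 0.974 CPM in mural cells, with 2 to 4 genes at 0.

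**Figure D3:**
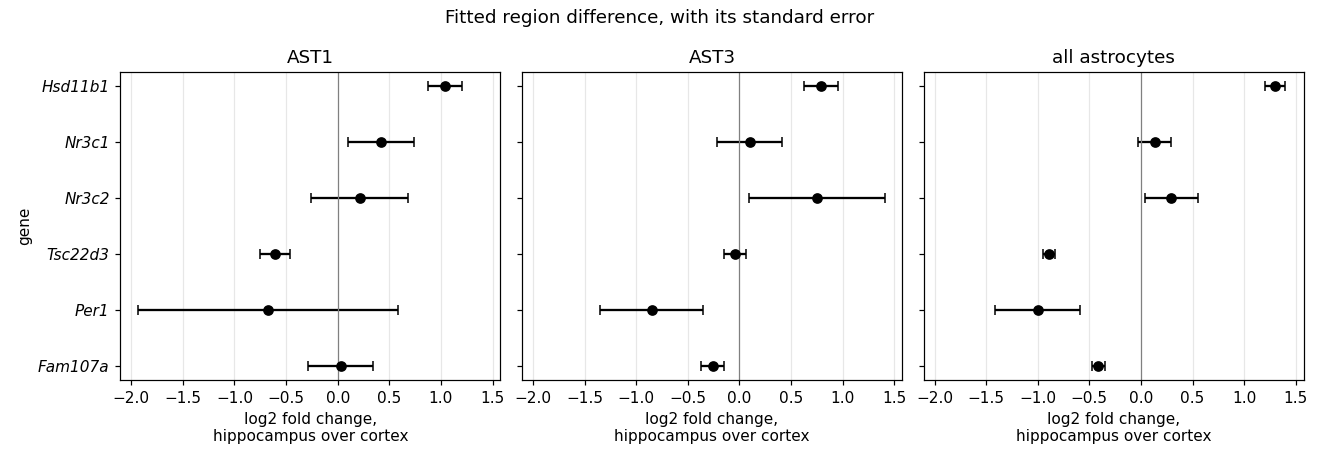
Fitted log2 fold change of hippocampus over cortex (horizontal axis) for the 6 members tested in both subtypes, in AST1, AST3 and all astrocytes. Points are edgeR estimates and bars are 1 standard error on either side. Hsd11b1 is at 1.04, 0.79 and 1.30 and Tsc22d3 at −0.61, −0.05 and −0.89. The sums of all astrocytes hold the subtypes in shares that differ by region.

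Read against all genes, suspensions that did not overlap between regions were common. In AST1 28.1% of genes tested were higher and 14.6% lower in both hippocampal suspensions than in both cortical ones, and of the 6 members tested 1 was higher (Hsd11b1), 1 lower (Tsc22d3) and 4 overlapped. In AST2 the background was 9.38% higher and 43.6% lower, and of 7 members tested 2 were higher (Hsd11b1 and Nr3c1), 4 were lower (Sgk1, Tsc22d3, Per1 and Fam107a) and 1 overlapped. Sgk1 counts as lower there only because 0 of 32 hippocampal cells had a count, beside 4 of 523 cortical cells, and so few cells could not have shown a difference. In AST3 the background was 14.7% higher and 26.6% lower, and 1 member was higher, 3 were lower (Tsc22d3, Per1 and Fam107a) and 2 overlapped. For all astrocytes it was 21.9% and 24.1%, and 1 member was higher, 4 were lower and 2 overlapped. For mural cells it was 24.6% and 12.5%, and of 5 members tested 2 were higher (Sgk1 and Tsc22d3), 0 were lower and 3 overlapped.

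Reverse transcription dates were shared between the regions. In both AST1 and AST3 10 date labels, from 8 calendar dates of which 2 carried a second label, had at least 5 cells of each region. In AST1 Hsd11b1 was higher in hippocampus under 10 of 10 labels, with a median log2 ratio of 1.39, from 5 to 12 cortical cells a label, and its CPM ranged from 299.2 to 1191 in cortex and from 1329 to 2043 in hippocampus. In AST3 it was higher under 9 of 10 labels (median log2 ratio 0.87). The share of cells with an Hsd11b1 count was higher in hippocampus under 10 labels in AST1 but under only 6 in AST3. Tsc22d3 was lower in hippocampus under 7 of 10 labels in AST1 (median log2 ratio −0.57) and 6 of 10 in AST3 (−0.10). Fam107a was higher under 7 of 10 labels in AST1 (median log2 ratio 0.32) and lower under 8 of 10 in AST3 (−0.23), and Per1 was lower under 7 of 10 in both subtypes. Nr3c1 was higher under 5 and lower under 5 labels in both, and Nr3c2 was higher under 7 in AST1 and 8 in AST3. Labels are not independent of the suspensions, whose cells they share.

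**Figure D4:**
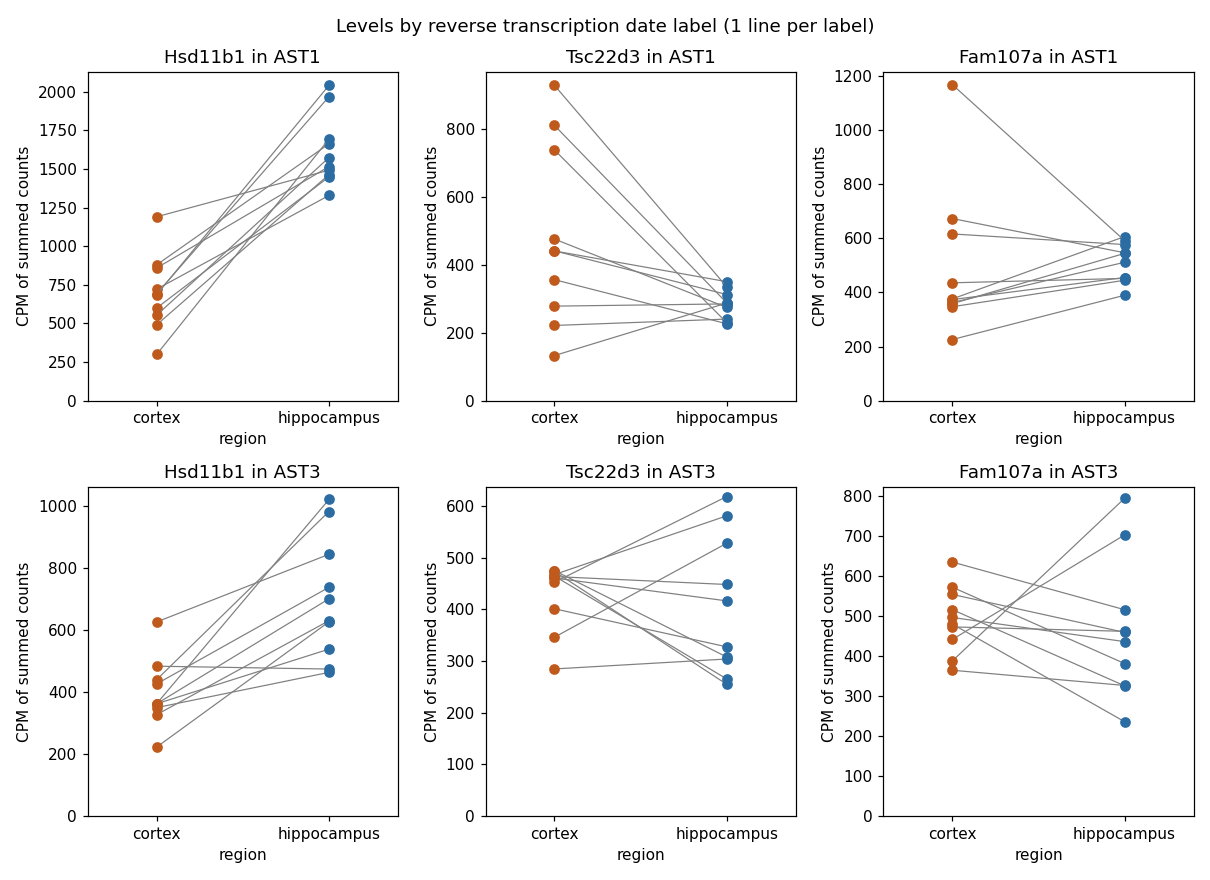
Level (vertical axis, CPM of summed counts) in cortex and hippocampus under each of 10 reverse transcription date labels from 8 calendar dates, 1 line per label, for Hsd11b1, Tsc22d3 and Fam107a (columns) in AST1 (upper row) and AST3 (lower row). The lines of Hsd11b1 climb under 10 and 9 of 10 labels, those of Tsc22d3 descend under 7 and 6, and those of Fam107a climb under 7 in AST1 and descend under 8 in AST3.

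The wider pathway lists had 0 genes called by edgeR in every region comparison. Of 19 other glucocorticoid targets tested over all astrocytes 7 had a positive and 12 a negative log2 fold change, with a median of −0.34 against 0.01 for all genes. Of 14 clock genes 3 were positive and 11 negative (median −0.45). Of 9 coregulators 1 was positive and 8 negative (median −0.17), and the 8 chaperones were evenly divided (median 0.09). Within types the split differed. In AST3 8 clock genes were positive and 6 negative (median 0.03) and 5 coregulators positive and 4 negative (median 0.09). In mural cells 7 clock genes were positive and 5 negative. These ran from −1.55 to 14.8, so their median of 2.29 gives no size of change. In AST1 4 clock genes were positive and 10 negative (median −0.23) and 3 coregulators positive and 6 negative (median −0.17), and in AST2 2 and 12 (median −0.46) and 1 and 8 (median −0.48). Of the other glucocorticoid targets 7 were positive and 10 negative in AST1 (median −0.14), 6 and 11 in AST2 (median −0.28), 7 and 11 in AST3 (median −0.35) and 9 and 6 in mural cells (median 0.55). The median of all genes was 0.10 in AST1, −0.62 in AST2, −0.04 in AST3 and 0.24 in mural cells. So the AST2 medians of clock genes, coregulators and other targets lay above that of all genes, although most of their values were negative. Of 12 immediate early genes over all astrocytes 3 were positive and 9 negative (median −0.18). Within subtypes 4 of 11 were positive and 7 negative in AST1 (median −0.31) and 3 of 10 positive and 7 negative in AST2 (median −1.02). In AST3 0 were positive and 11 negative (median −0.995, against −0.04 for all genes), the reverse of mural cells.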

How the data were processed

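Single cells of mouse cortex and hippocampus were sequenced by the authors with Smart-seq2. According to the study's methods and the submitters' processing notes, reads were mapped with STAR 2.5.2b to GRCm38.p5 with the Gencode annotation and ERCC sequences and counted with HTSeq; quality was checked with FastQC 0.11.4. The values the authors deposited are raw counts per gene and cell, neither normalized nor pooled. Of a series-wide table of the same counts 32 columns were compared, in which 256 of 256 member values were equal, and 1999 columns were not used. Cells without a type (15), cells not in the copy of the authors' list (33) and 1 mural cell without a file entered no comparison. Library sizes hold neither reads outside genes nor ERCC counts. Smart-seq2 has no molecular identifiers and PCR copies are counted as reads, so intervals and limits cover counting error only.

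The members and gene lists were chosen with earlier results of these data known. The members are always named; of each pathway list at most 3 genes with the highest mean level, and genes called in a region comparison, could be named, and Hsd11b2 was named beside them after its values were seen. For each member the 3 most correlated genes with a mean of at least 20 CPM could be named.

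Counts were summed per type and suspension (at least 5 cells). Regions were compared with edgeR 4.0.16 (TMM, low-count filter, robust quasi-likelihood test) in R 4.3.3. The standard error of an edgeR value is the size of its log2 fold change divided by the square root of its F statistic. The interaction fit had a term for each suspension. DESeq2 1.42.0, limma 3.58.1, other size factors, filters, and leaving out each suspension were alternatives. The edgeR region test, but not the interaction fit or the alternatives, was also run on simulated counts with known changes. Its outcome there is not given, and no result here rests on it.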

Additional observations from a re-analysis of the deposited data

Results flagged for a closer look

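The cells that entered no comparison also held counts of the members, which is why they are given here. The 15 cells without a type had 611 CPM of Hsd11b1, 6.25 CPM of Nr3c1, 691 CPM of Tsc22d3 and 1860.5 CPM of Fam107a in their summed counts, with a median of 1.61% of reads outside exons. The 33 cells not in the list, all of suspension 1C, had 380.3 CPM of Hsd11b1, 113.8 CPM of Nr3c1, 42.5 CPM of Nr3c2, 9.84 CPM of Sgk1, 491 CPM of Tsc22d3, 33.96 CPM of Per1 and 594 CPM of Fam107a. All these values are above the limit that a count of 0 allows, and no comparison was made with them.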

How the results depend on the processing

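The share of genes called in the region comparisons, 0% by edgeR in each, depended on the tool. With DESeq2 it was 17.5% in AST1, 29.2% in AST2, 13.8% in AST3, 12.9% in mural cells, 9.70% in all astrocytes and 10.9% for the AST1 and AST3 differences compared. With limma on mean log values it was 0.00668% in AST3 and 2.64% in all astrocytes. With 1 fit over 4 cell types it was 1.05% in AST2, 0.00538% in AST3 and 1.52% in mural cells, and for the mean of the AST1, AST2 and AST3 contrasts it was 2.61% in place of all astrocytes. Those fits count the sums of 1 suspension as separate samples although they share animals, so their p-values are too small. Leaving out 1 suspension gave 0 to 34.4% in AST2, with 13% without Hippocampus replicate 1 and 34.4% without Hippocampus replicate 2, which leaves a lone sum of 22 or 10 cells that is assumed to vary like the others. The cause of these changes was not tested.

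The replicate numbers come from different litters and pair no suspensions: deviations of same-numbered suspensions correlated at −0.01 over all astrocytes. With the replicate block 0 genes were called in each region comparison, and without it 0 for the AST1 and AST3 differences compared.

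Of the recomputed member differences 27 changed sign, 16 when 1 suspension was left out and 11 otherwise, 23 kept their direction and passed the threshold, and the others kept both. None of the sign changes was in Hsd11b1. Those of log2 values in limma were Nr3c2 in AST2 (−0.29), in mural cells (0.031) and in the compared differences (0.12), Nr3c1 in AST3 (−0.18) and all astrocytes (−0.12), and Tsc22d3 in the compared differences (0.038). With DESeq2's size factors and with its test Fam107a in AST1 was at −0.024. With the replicate block Per1 in AST1 was at 0.0195, Nr3c2 in AST2 at −4.40 and in mural cells at 4.38, the last 2 with sums at 0 counts and so no size. Leaving out each suspension in turn, the log2 values ran from −0.32 to 0.50 for Fam107a, −0.015 to 0.49 for Nr3c2 and −1.54 to 1.78 for Per1 in AST1 (lowest or highest without Cortex replicate 2 in each). They ran from −15.65 to 1.08 for Nr3c2 in AST2, −0.32 to 0.44 for Nr3c1, −0.36 to 1.38 for Nr3c2 and −0.10 to 0.025 for Tsc22d3 in AST3, and −1.62 to 13.60 for Nr3c2 and −0.29 to 8.85 for Per1 in mural cells, where the extremes rest on sums at 0. They ran from −0.067 to 0.30 for Nr3c1 in all astrocytes, and in the compared differences from −1.03 to 0.47 for Nr3c2, −0.54 to 2.26 for Per1 and −0.0050 to 0.71 for Fam107a.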
